A study of Eucalyptus nitens with 12 samples.

Results

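In cambial RNA of *Eucalyptus nitens*, 32 genes that were well expressed in trees of high Kraft pulp yield (KPY) were higher still in trees of low KPY, in both of the trials that were sampled. They were chosen by their values in low against high KPY: the gene had exactly 1 transcript in each trial, a mean of at least 10 CPM (counts scaled to library size) over the high KPY bulks of both trials, and an L of at least 1.5 in both, where L is log2 of the low KPY mean over the high KPY mean with 0.1 CPM added to each. Of 12224 genes with 1 transcript in each trial, 7837 were well expressed by the 10 CPM minimum and 32 met the whole rule. In Meunna 38 well expressed genes reached an L of 1.5 and in Florentine 91 did. An L of -1.5 or less in both trials was found in 136 well expressed genes. Because a minimum on high KPY favours genes that are lower in low KPY, these counts are not an even comparison. With the 10 CPM minimum set on low KPY instead, 182 genes had an L of at least 1.5 in both trials. Which direction was more common therefore depends on where the minimum is set. The rule named 4 genes to be left out, none of which met it. Of these, Eucgr.F03955 did not have exactly 1 transcript in each trial and was not compared with the thresholds, and the others missed a threshold. Since low against high KPY chose the genes, their values in that contrast are a description, and how many of them passed a threshold there is given only beside the share of all transcripts that did.

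The vascular cambium is the dividing layer that gives rise to wood (xylem) on its inner side and to phloem on its outer side, and young xylem cells spend much of their transcription on building the secondary wall. KPY is the share of wood that remains as pulp after alkaline cooking. The same tissue also expresses genes for stress protection, ion transport, protein turnover and signalling, and plants commonly raise the transcripts of many such genes under drought, salt or nutrient stress.

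RNA was taken from cambial scrapings, labelled as xylem, of trees at the low and high extremes of KPY in the Meunna and Florentine trials, given as 20 years old. Each of the 4 groups, Meunna low KPY, Meunna high KPY, Florentine low KPY and Florentine high KPY, had 3 bulks, each of them RNA pooled from several trees and sequenced as 1 library. Reads counted per library came to 49489614 to 70097142 in Meunna low KPY and 75565811 to 89987549 in Meunna high KPY, and to 44538273 to 53775708 in Florentine low KPY and 45345079 to 45986808 in Florentine high KPY. The trees were not treated: the classes differ in every trait that goes with KPY, stem diameter among them, and the parts of such traits cannot be told apart. A bulk gives 1 value for many trees, so spread between bulks is not spread between trees. In RNA of a mixed tissue, fewer cells of a type and less RNA per cell cannot be told apart either. Values of single bulks are given in CPM in the order of replicates 1, 2 and 3, and CPM are not corrected for transcript length, so levels are compared within a gene only.

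**Figure D1:**
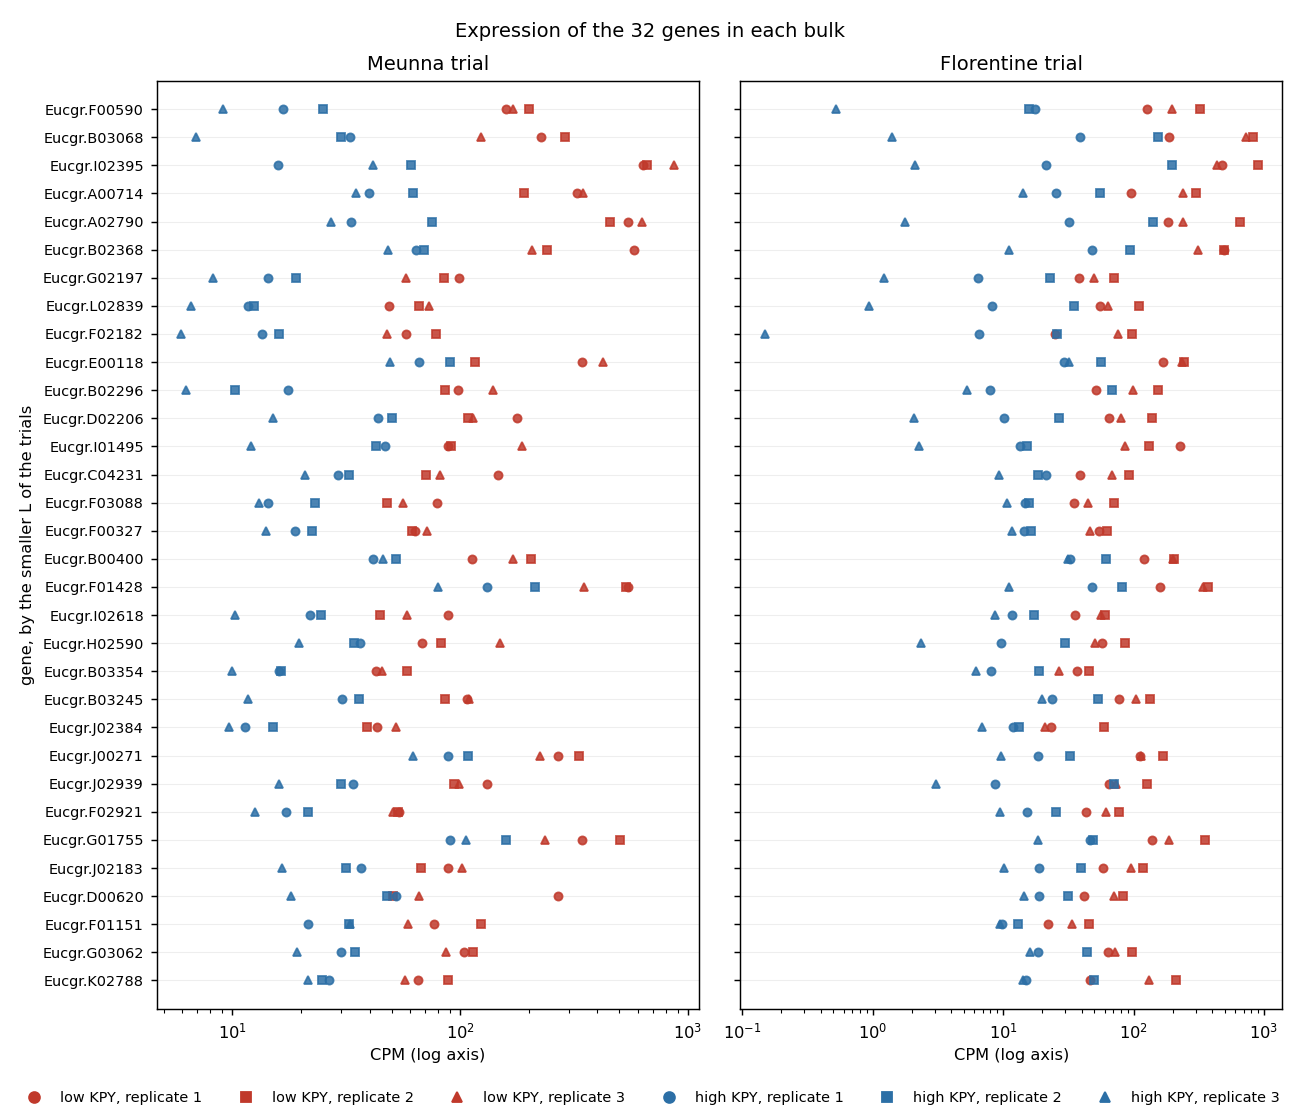
CPM of the 32 genes (rows, ordered by the smaller L of the trials) in each bulk of Meunna (left) and Florentine (right) on a log axis, with low KPY bulks in red and high KPY bulks in blue and a symbol for each replicate. Low KPY bulks lie to the right of all high KPY bulks in 31 genes in Meunna and 28 in Florentine, and the triangle of Florentine high KPY replicate 3 lies far to the left in many rows.

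For 10 of the 32 genes a described *Arabidopsis thaliana* match was at hand, and they are taken first, by role. The other 22 carry only their *E. grandis* gene identifier here. Eucgr.A02790, a match of the CAP160 protein (AT5G52300, known in *Arabidopsis* as RD29B, a gene induced by desiccation and abscisic acid), had 545, 455 and 630.0 CPM in Meunna low KPY bulks, against 33.2, 75.3 and 27.1 CPM in Meunna high KPY bulks. In Florentine it had 185, 655 and 241 CPM in low KPY bulks, against 31.8, 142 and 1.78 CPM in high KPY bulks. The groups did not overlap in either trial, but in Florentine the highest high KPY bulk came close to the lowest low KPY bulk. L was 3.58 in Meunna and 2.62 in Florentine.

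Eucgr.B02368 matches metallothionein 2A, a small cysteine-rich protein that binds metals. It had 577, 239.7 and 207 CPM in Meunna low KPY bulks, against 64.1, 69.5 and 48.3 CPM in Meunna high KPY bulks, an L of 2.49. In Florentine the low KPY bulks had 493, 493 and 309 CPM, against 48.1, 94.2 and 11.0 CPM in high KPY bulks, an L of 3.08. Low KPY replicate 1 stood well above the other low KPY bulks in Meunna, whereas in Florentine the high KPY bulks were, in proportion, farther apart than the low KPY bulks.

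Transport across membranes is the role of 2 described genes. Eucgr.B00400 matches H(+)-ATPase 8, a proton pump of the plasma membrane that energizes nutrient uptake, and had 113, 204 and 171 CPM in Meunna low KPY bulks, against 41.5, 52.1 and 45.7 CPM in Meunna high KPY bulks. In Florentine it had 119.8, 205 and 199 CPM in low KPY bulks, against 32.7, 61.9 and 31.4 CPM in high KPY bulks. Its groups were well apart in both trials, with an L of 1.81 in Meunna and 2.06 in Florentine. Eucgr.B03354 matches K+ uptake permease 6, a potassium transporter, and had 42.8, 58.4 and 45.4 CPM in Meunna low KPY bulks, against 16.1, 16.3 and 9.91 CPM in Meunna high KPY bulks, and in Florentine 36.7, 45.2 and 27.0 CPM in low KPY bulks, against 8.02, 18.9 and 6.17 CPM in high KPY bulks. Here too every low KPY bulk was above every high KPY bulk, with an L of 1.79 in Meunna and 1.71 in Florentine.

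Protein turnover is the role of another 2. Eucgr.B03245 matches RING domain ligase2, an E3 ubiquitin ligase that in *Arabidopsis* acts in the drought response, and had 107, 85.9 and 109 CPM in Meunna low KPY bulks, against 30.3, 35.9 and 11.7 CPM in Meunna high KPY bulks. In Florentine the values were 77.9, 133 and 105 CPM in low KPY bulks, against 23.5, 53.1 and 19.8 CPM in high KPY bulks, and the L of 1.95 in Meunna was 1.71 in Florentine. Low KPY bulks were above high KPY bulks throughout. Eucgr.D00620 matches phosphate 2 (PHO2), an E2 ubiquitin conjugase that in *Arabidopsis* limits phosphate uptake, and had 268, 50.8 and 66.0 CPM in Meunna low KPY bulks, against 52.1, 47.7 and 18.2 CPM in Meunna high KPY bulks. Low KPY replicate 1 stood far above the rest, and replicate 2 lay below high KPY replicate 1. Its Meunna L of 1.70 was 0.58 without low KPY replicate 1, short of the rule. In Florentine it had 41.8, 83.4 and 71.2 CPM in low KPY bulks, against 18.8, 31.2 and 14.6 CPM in high KPY bulks, without overlap and with an L of 1.60.

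Signalling and transcription are represented by a kinase and a DNA-binding protein. Eucgr.A00714 matches with no lysine (K) kinase 5, of a kinase family named for the lysine missing from its usual place in the catalytic domain, and had 324, 191 and 347 CPM in Meunna low KPY bulks, against 39.7, 61.8 and 34.8 CPM in Meunna high KPY bulks. In Florentine it had 95.4, 303 and 238 CPM in low KPY bulks, against 25.2, 55.8 and 14.2 CPM in high KPY bulks. The groups were apart in both trials and the L of 2.66 in Meunna and 2.74 in Florentine were close. Eucgr.D02206 matches a PLATZ transcription factor, a plant-specific zinc-dependent DNA-binding protein, and had 178, 108 and 114 CPM in Meunna low KPY bulks, against 43.8, 49.9 and 15.0 CPM in Meunna high KPY bulks. In Florentine its low KPY bulks had 65.1, 138 and 80.1 CPM, against 10.2, 26.8 and 2.08 CPM in high KPY bulks. L was 1.88 in Meunna and 2.85 in Florentine, and replicate 3 was the lowest high KPY bulk in both trials.

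Eucgr.C04231 matches a tetratricopeptide repeat protein, a fold that binds other proteins, and had 146, 70.7 and 81.4 CPM in Meunna low KPY bulks, against 29.0, 32.6 and 20.8 CPM in Meunna high KPY bulks, and in Florentine 39.0, 91.8 and 68.2 CPM in low KPY bulks, against 21.2, 18.4 and 9.24 CPM in high KPY bulks. Its L was 1.85 in Meunna and 2.02 in Florentine, with no overlap of the groups. Eucgr.B02296 matches an *Arabidopsis* protein of unknown function and had 97.5, 85.8 and 139.6 CPM in Meunna low KPY bulks, against 17.5, 10.3 and 6.27 CPM in Meunna high KPY bulks, an L of 3.23. In Florentine it had 51.5, 154 and 98.2 CPM in low KPY bulks, against 7.97, 68.8 and 5.25 CPM in high KPY bulks, an L of 1.89. There high KPY replicate 2 was above low KPY replicate 1, so the groups overlapped.

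**Figure D2:**
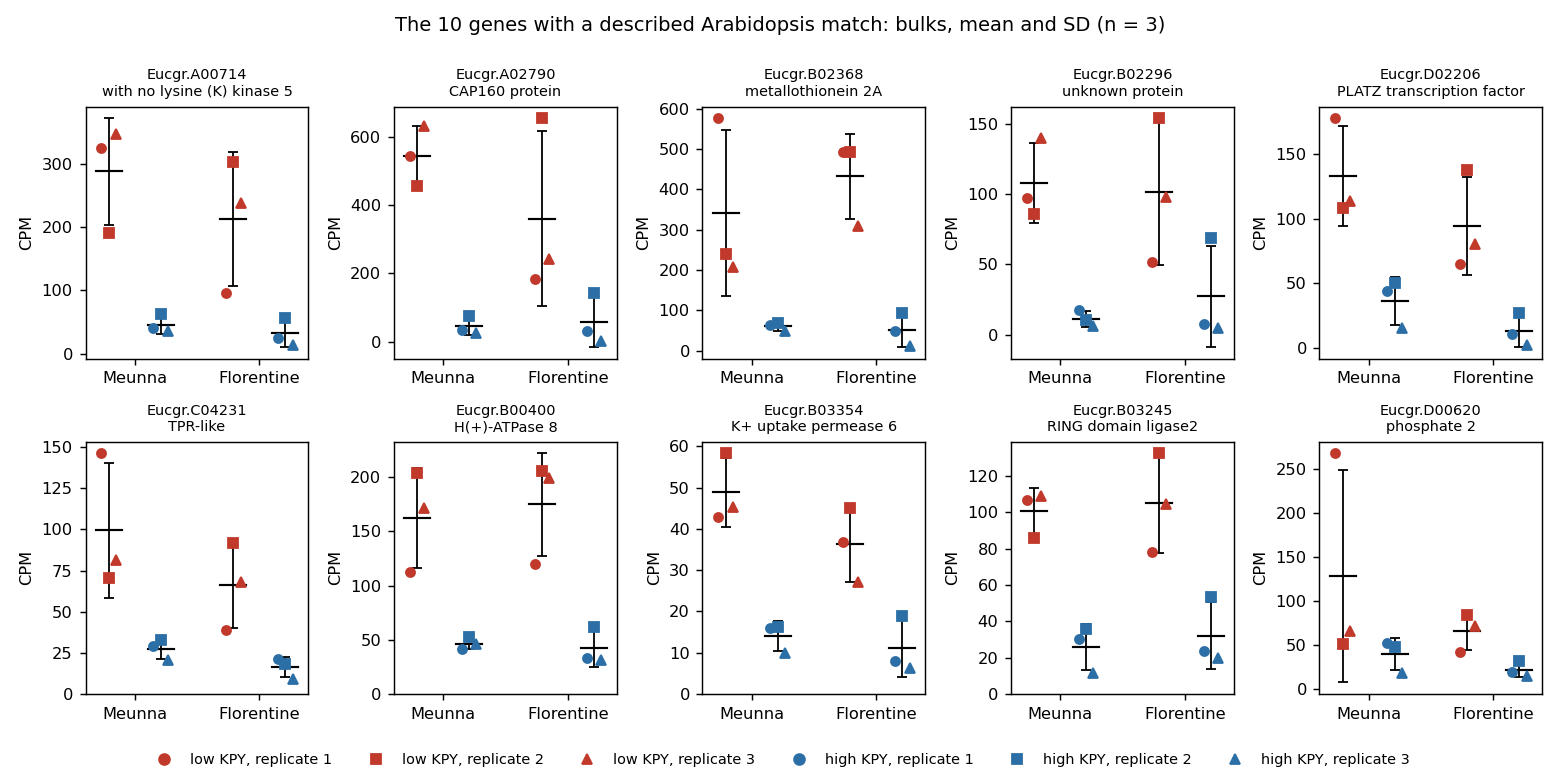
CPM of the 10 genes with a described match, 1 panel each, by trial, with low KPY bulks (red) left of high KPY bulks (blue), a symbol for each replicate, and bars for the mean and SD (n = 3 bulks). Low KPY means are above high KPY means in every panel, and overlap of single bulks is seen for Eucgr.D00620 in Meunna and Eucgr.B02296 in Florentine.

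The largest L in Florentine belonged to a gene with no description here. For Eucgr.F00590 the values were 159, 201 and 170.1 CPM in Meunna low KPY bulks, against 16.6, 24.9 and 9.09 CPM in Meunna high KPY bulks, and in Florentine 127, 323 and 197 CPM in low KPY bulks, against 17.5, 15.7 and 0.52 CPM in high KPY bulks. Its mean was 10.4-fold higher in low KPY in Meunna and 19.0-fold higher in Florentine, with an L of 3.38 and 4.25. The largest L in Meunna was that of Eucgr.I02395, which had 636, 660.1 and 871 CPM in Meunna low KPY bulks, against 15.8, 60.9 and 41.3 CPM in Meunna high KPY bulks, an 18.3-fold difference. In Florentine it had 478, 895 and 433 CPM in low KPY bulks, against 21.5, 196 and 2.11 CPM in high KPY bulks, where the high KPY bulks spanned, in proportion, the wider range. Eucgr.B03068 had 226, 289 and 123 CPM in Meunna low KPY bulks, against 32.8, 30.1 and 6.95 CPM in Meunna high KPY bulks, and in Florentine 187, 820.2 and 729 CPM in low KPY bulks, against 39.0, 153 and 1.41 CPM in high KPY bulks. L of Eucgr.B03068 was 3.19 in Meunna and 3.16 in Florentine, and no bulks of the classes overlapped, although Florentine low KPY replicate 1 exceeded high KPY replicate 2 by little.

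Among the 10 genes with the highest low KPY level, 4 more had no description. Eucgr.F01428 had 544, 535 and 348 CPM in Meunna low KPY bulks, against 131, 213 and 80.01 CPM in Meunna high KPY bulks, and 159.9, 372 and 343 CPM in Florentine low KPY bulks, against 48.1, 82.0 and 11.1 CPM in Florentine high KPY bulks. Eucgr.G01755 had 342, 505 and 235 CPM in Meunna low KPY bulks, against 90.6, 158 and 106 CPM in Meunna high KPY bulks, and 138, 353 and 185 CPM in Florentine low KPY bulks, against 46.1, 48.9 and 18.5 CPM in Florentine high KPY bulks. For both, L was larger in Florentine, at 2.63 for Eucgr.F01428 and 2.57 for Eucgr.G01755, than in Meunna, at 1.75 and 1.61. Eucgr.E00118 had 343, 116 and 425 CPM in Meunna low KPY bulks, against 66.1, 89.7 and 49.3 CPM in Meunna high KPY bulks, and 167, 243 and 237 CPM in Florentine low KPY bulks, against 29.3, 56.0 and 31.8 CPM in Florentine high KPY bulks. Meunna low KPY replicate 2 of Eucgr.E00118 was far below the other low KPY bulks but still above all high KPY bulks. Eucgr.J00271 had 269, 333 and 225 CPM in Meunna low KPY bulks, against 88.2, 108 and 61.7 CPM in Meunna high KPY bulks, and 111, 169 and 114 CPM in Florentine low KPY bulks, against 18.4, 32.6 and 9.66 CPM in Florentine high KPY bulks.

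Of the 10 genes with the largest smaller L, 3 were at lower levels. Eucgr.G02197 had 98.7, 85.1 and 58.0 CPM in Meunna low KPY bulks, against 14.4, 19.1 and 8.20 CPM in Meunna high KPY bulks, and 37.8, 70.7 and 49.6 CPM in Florentine low KPY bulks, against 6.39, 22.9 and 1.21 CPM in Florentine high KPY bulks. Eucgr.L02839 had 48.8, 66.2 and 73.2 CPM in Meunna low KPY bulks, against 11.7, 12.5 and 6.61 CPM in Meunna high KPY bulks, and 55.7, 109 and 63.9 CPM in Florentine low KPY bulks, against 8.22, 35.1 and 0.941 CPM in Florentine high KPY bulks. The classes did not overlap for either, and both had less than 2 CPM in Florentine high KPY replicate 3. Eucgr.F02182 had 57.9, 78.4 and 47.6 CPM in Meunna low KPY bulks, against 13.5, 16.1 and 5.96 CPM in Meunna high KPY bulks, and 25.2, 97.0 and 76.0 CPM in Florentine low KPY bulks, against 6.49, 25.8 and 0.149 CPM in Florentine high KPY bulks. The last of these values stands for 6 counted reads, the fewest of any of the 32 genes in a library, and high KPY replicate 2 was above low KPY replicate 1.

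The remaining 12 genes, none with a description here, were Eucgr.F00327, Eucgr.F01151, Eucgr.F02921, Eucgr.F03088, Eucgr.G03062, Eucgr.H02590, Eucgr.I01495, Eucgr.I02618, Eucgr.J02183, Eucgr.J02384, Eucgr.J02939 and Eucgr.K02788. Their means ran from 44.8 to 122 CPM in Meunna low KPY and from 12.0 to 33.8 CPM in Meunna high KPY, and from 33.8 to 148 CPM in Florentine low KPY and from 10.4 to 27.6 CPM in Florentine high KPY. L was 1.53 to 2.02 in Meunna and 1.57 to 3.83 in Florentine. The bulks of a class were close for some of them, such as Eucgr.F00327, with 63.5, 61.3 and 71.5 CPM in Meunna low KPY bulks, against 18.9, 22.4 and 14.03 CPM in Meunna high KPY bulks, and 54.5, 62.3 and 46.7 CPM in Florentine low KPY bulks, against 14.6, 16.4 and 11.7 CPM in Florentine high KPY bulks. Eucgr.J02939 had 131, 94.2 and 98.5 CPM in Meunna low KPY bulks, against 33.7, 30.1 and 15.9 CPM in Meunna high KPY bulks, and 64.7, 126 and 73.0 CPM in Florentine low KPY bulks, against 8.62, 71.0 and 3.05 CPM in Florentine high KPY bulks, where high KPY replicate 2 was above low KPY replicate 1. Over all 32 genes the median L was 1.85 in Meunna and 2.26 in Florentine, beside -0.15 and -0.09 over the well expressed genes. By the letter in their *E. grandis* identifiers, 7 of the 32 carried F and 6 B, as did 1482 and 1267 of the 12224 genes with 1 transcript, and each of the other letters was carried by 1 to 4.

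**Figure D3:**
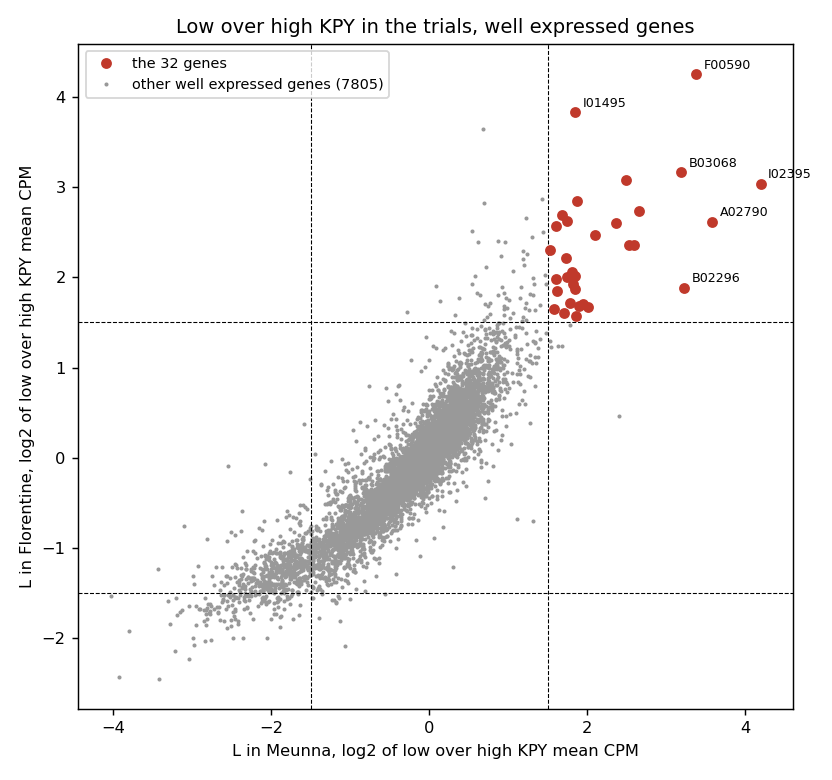
L in Florentine (vertical axis) against L in Meunna (horizontal axis) for well expressed genes, with the 32 genes in red, the other 7805 in grey and dashed lines at 1.5 and -1.5. The red points fill the upper right corner that the rule cut out, with Eucgr.F00590 and Eucgr.I02395 farthest out, and more grey points lie in the opposite corner.

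Close to the thresholds the choice is fine-grained. The lowest smaller L among the 32 were 1.53 for Eucgr.K02788 and 1.57 for both Eucgr.G03062 and Eucgr.F01151, followed by 1.60 for Eucgr.D00620 and for Eucgr.J02183. Just outside lay Eucgr.F01770, a match of starch branching enzyme 2.1, with 1.48, Eucgr.B01389 with 1.48, Eucgr.J00610 with 1.47, Eucgr.H03965 with 1.44 and Eucgr.F04468 with 1.43. On the CPM minimum, Eucgr.G02197 (10.2 CPM), Eucgr.L02839 (10.3 CPM) and Eucgr.I01495 (10.4 CPM) were just inside in their lower high KPY mean. Eucgr.E00676 (9.99 CPM), Eucgr.F00225 (9.91 CPM) and Eucgr.D02022 (9.88 CPM), the last a match of pectin methylesterase inhibitor 1, were just outside. Which genes meet the rule also depends on single bulks: 9 of the 32 met it without each of the 12 libraries in turn. The fewest, 20 of them, met it without Florentine high KPY replicate 2, and with medians in place of means 16 did. The 9 were Eucgr.A00714, Eucgr.A02790, Eucgr.B00400, Eucgr.B02368, Eucgr.B03068, Eucgr.E00118, Eucgr.F00327, Eucgr.F03088 and Eucgr.I02395.

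Every low KPY bulk was above every high KPY bulk in 31 of the 32 genes in Meunna, all but Eucgr.D00620, and in 28 in Florentine, all but Eucgr.B02296, Eucgr.F02182, Eucgr.J02939 and Eucgr.K02788. Over all transcripts that held for 22.5% in Meunna and 29.4% in Florentine. By the quasi-likelihood test of edgeR, adjusted by Benjamini-Hochberg over all transcripts of a trial, 31 of the 32 were past a false discovery rate (FDR) of 0.05 in Meunna and 23 in Florentine, where 11.1% and 19.5% of all transcripts were called higher in low KPY. As the rule used the same contrast, nothing is read from these counts. The Florentine count rests on single libraries: without high KPY replicate 1 or replicate 3 it was 0, and this test then called 0 of all transcripts while 10009 and 9701 had an unadjusted p under 0.05. Without low KPY replicate 3 it was 9.

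The 32 genes also shared an order of the bulks within a class. The rule does not name this order, but in Florentine high KPY its minimum on the mean favours genes with 1 high bulk. Without Florentine high KPY replicate 2, 12 of the 32 missed the rule, so the order there is in part set by the choice of genes. In Florentine high KPY, replicate 2 was the highest bulk in 30 of the 32 genes and replicate 3 the lowest in 31, whereas among all well expressed genes replicate 2 was highest in 38.2% and replicate 3 lowest in 32.2%. Replicate 1 was the highest in the other 2, Eucgr.C04231 and Eucgr.F00590. The ratio of replicate 2 to replicate 3 had a median of 3.69 over the 32 genes and of 0.992 over the well expressed genes. It exceeded 10 in 11 of the 32 genes, and in 18 of all 7837 well expressed genes, these 11 included. In replicate 3, 11 of the 32 were under 5 CPM, 10 of them with such a ratio, and none of the 32 was under 5 CPM in the other Florentine high KPY bulks or in any Meunna bulk.

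In Florentine low KPY, replicate 2 was the highest bulk in 30 of the 32 genes, all but Eucgr.B02368 and Eucgr.I01495, and replicate 1 the lowest in 25. The median ratio of replicate 2 to replicate 1 was 1.98 over the 32 genes, against 0.957 over the well expressed genes. In Meunna high KPY, replicate 2 was highest in 23 and replicate 3 lowest in 28 of the 32, beside 30.6% and 27.6% of well expressed genes, and their ratio had a median of 1.79, against 0.959. In Meunna low KPY no bulk stood out: replicates 1, 2 and 3 were highest in 10, 10 and 12 genes. Without Florentine low KPY replicate 2, 7 of the 32 missed the rule, and without Meunna high KPY replicate 3, 9 did. The orders in these groups are thus also in part set by the choice of genes. All these counts of bulks share the same libraries and are a description across genes, with no test.

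Outside Meunna low KPY, the summed CPM of the 32 genes put the bulks in the same order. The sum was 3421, 6898 and 4639 CPM in Florentine low KPY bulks, against 630.4, 1589 and 298 CPM in Florentine high KPY bulks. In Meunna it was 6071, 5324 and 5517 CPM in low KPY bulks, against 1162, 1521 and 810.3 CPM in high KPY bulks. The sums of the classes were apart in both trials. Compared with Florentine high KPY replicate 2 alone, the Florentine low KPY means of the 32 genes had a median log2 ratio of 1.44, with 17 genes under 1.5, while without that bulk the median was 3.18. In 8 of the 32 genes the median Florentine high KPY bulk was under 10 CPM, so their mean reached the minimum through replicate 2, and in Meunna this was so in 0.

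**Figure D4:**
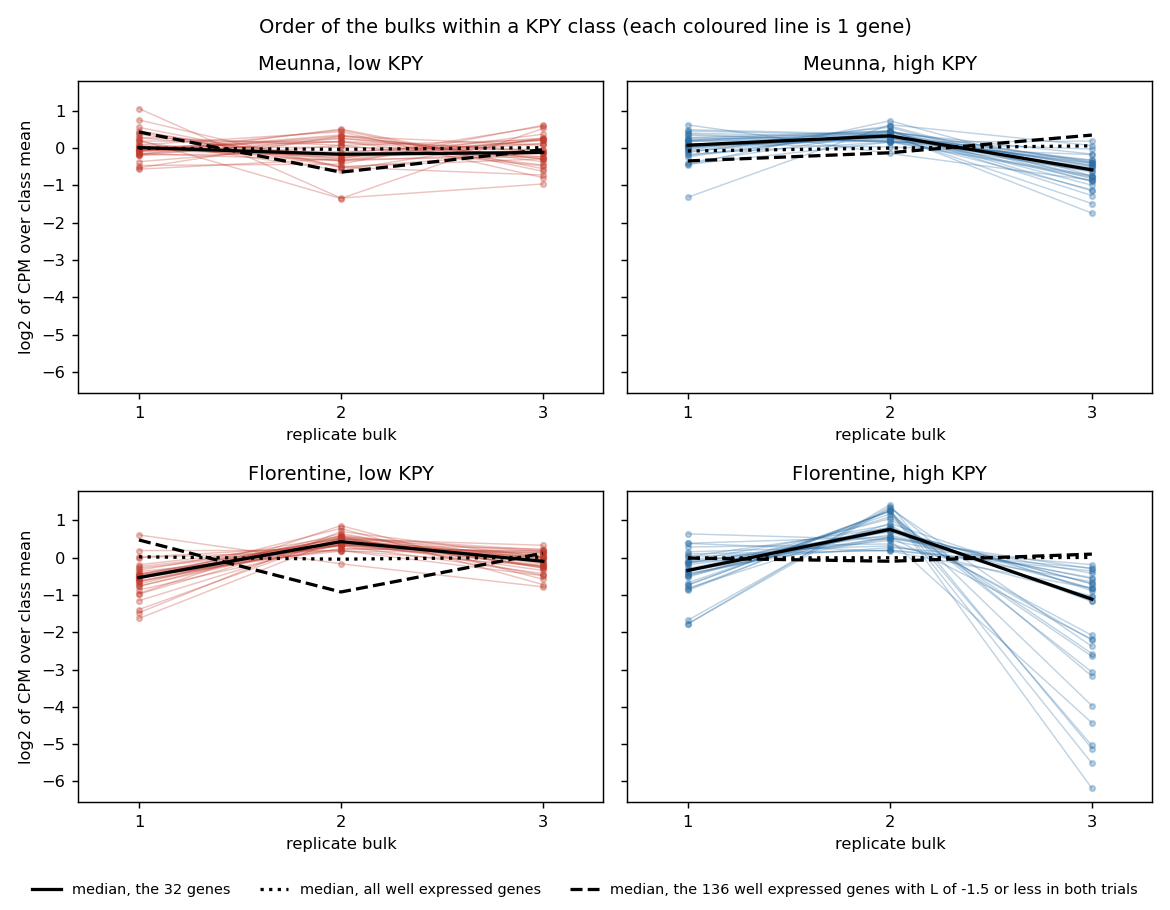
Log2 of a bulk's CPM over the mean of its class (vertical axis) for replicates 1 to 3 (horizontal axis) in low KPY (left) and high KPY (right) of Meunna (top) and Florentine (bottom). Each coloured line is 1 of the 32 genes, and the black lines are medians of the 32 genes (solid), of all well expressed genes (dotted) and of the 136 with an L of -1.5 or less in both trials (dashed). The lines of the 32 genes peak at replicate 2 and drop at replicate 3 in Florentine high KPY, while the dotted line stays flat.

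Spread between bulks was wider in these genes than over the well expressed genes. The SD of log2(CPM + 0.1) had a median of 0.36 in Meunna low KPY and 0.50 in Meunna high KPY over the 32 genes, beside 0.18 and 0.14 over the well expressed genes. In Florentine it was 0.52 in low KPY and 0.98 in high KPY, beside 0.15 and 0.11. All 32 genes exceeded the median of well expressed genes in Meunna high KPY and in both Florentine classes, and 29 did in Meunna low KPY. In low KPY, bulks far apart were not particular to these genes. Florentine low KPY bulks had median ratios to the class mean of 1.39, 0.53 and 1.09 over the 136 genes with L of -1.5 or less. Meunna low KPY bulks had 1.35, 0.64 and 0.97. The 32 genes had 0.69, 1.35 and 0.94 in Florentine low KPY and 1.01, 0.89 and 0.92 in Meunna low KPY. In Florentine high KPY the ratios of the 136 were closer, at 0.99, 0.94 and 1.07. Of the 32, the widest among low KPY bulks were Eucgr.D00620, Eucgr.E00118 and Eucgr.B02368 in Meunna and Eucgr.B03068, Eucgr.K02788 and Eucgr.F02182 in Florentine. Eucgr.K02788 had 46.7, 212 and 132 CPM in Florentine low KPY bulks, against 14.9, 49.8 and 14.2 CPM in Florentine high KPY bulks, so that replicate 2 was high in both classes, and 65.2, 87.9 and 57.5 CPM in Meunna low KPY bulks, against 26.4, 24.8 and 21.5 CPM in Meunna high KPY bulks.

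Markers of wood formation were lower in low KPY, and in Florentine the bulks with the highest sum of the 32 genes had the lowest marker sums. A list of secondary-wall xylem markers (cellulose synthases, fasciclin-like arabinogalactan proteins and laccases), with descriptions taken from genes that the study called on these same samples, summed to 9381, 3466 and 7495 CPM in Florentine low KPY bulks, against 22928, 20264 and 23718 CPM in Florentine high KPY bulks. In Meunna the sums were 3444, 1717 and 2442 CPM in low KPY bulks, against 11953, 13988 and 15874 CPM in high KPY bulks. In both Florentine classes the bulk with the highest sum of the 32 genes, replicate 2, had the lowest marker sum, and in both high KPY groups replicate 3 had the highest marker sum and the lowest sum of the 32 genes. This order did not hold throughout Meunna: in high KPY replicate 2 had the highest sum of the 32 genes but replicate 1 the lowest marker sum, and in low KPY replicate 2 was lowest in both sums. Of the marker transcripts, 17 of 22 were called lower and 1 higher in low KPY in Meunna, and 15 of 18 lower and 1 higher in Florentine. In Florentine 4 were called lower without low KPY replicate 3 and 0 without high KPY replicate 1 or 3. Over all transcripts, 4444 of 26279 were called lower in Meunna and 4789 of 23917 in Florentine. The study lists the markers Eucgr.B02486, Eucgr.J00937 and Eucgr.J00938 among its strongest falls in low KPY on these same samples. The marker counts are therefore not independent evidence. Of the 136 well expressed genes with an L of -1.5 or less, replicate 2 was the lowest bulk for 99.3% in Florentine low KPY, 55.9% in Florentine high KPY, 81.6% in Meunna low KPY and 19.9% in Meunna high KPY. Replicate 3 was the highest for 12.5%, 66.2%, 12.5% and 94.1% of them in the same groups, and replicate 1 for 87.5%, 18.4%, 86.0% and 0.735%. Florentine low KPY replicate 1, the highest bulk for 87.5% of these genes, was the lowest in 25 of the 32. A set order of the bulks within a class was thus not particular to the 32 genes. The part of tissue makeup in the levels of the 32 genes was not tested.

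Markers of other tissues were few among the 3626 genes with a description here, most of which the study had called on these samples. A marker without a description could not be found. Green tissue markers, 10 transcripts in Meunna and 11 in Florentine, summed to 145 to 172 CPM in Meunna low KPY bulks, against 261 to 322 CPM in Meunna high KPY bulks, and to 152 to 200.2 CPM in Florentine low KPY bulks, against 285 to 305 CPM in Florentine high KPY bulks. Of these transcripts 0 rose and 4 fell in Meunna and 4 rose and 5 fell in Florentine, where without high KPY replicate 1 or 3 none was called and without low KPY replicate 3 the counts were 1 and 2, and 3 fell without replicate 2 of either class. In Meunna 2 fell without low KPY replicate 3. The 1 phloem marker matched was at 0.153 to 0.662 CPM in Meunna low KPY and 1.78 to 3.44 CPM in Meunna high KPY, and at 0.203 to 1.11 CPM in Florentine low KPY and at 1.23 CPM or more in Florentine high KPY. The 1 marker of dividing cells was at 2.80 to 12.1 CPM in Meunna low KPY and 16.2 to 27.2 CPM in Meunna high KPY, and at 2.25 to 9.29 CPM in Florentine low KPY and 11.7 to 16.3 CPM in Florentine high KPY. No gene with a description here matched the list for cork and suberin, so cells of the bark could not be followed.

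**Figure D5:**
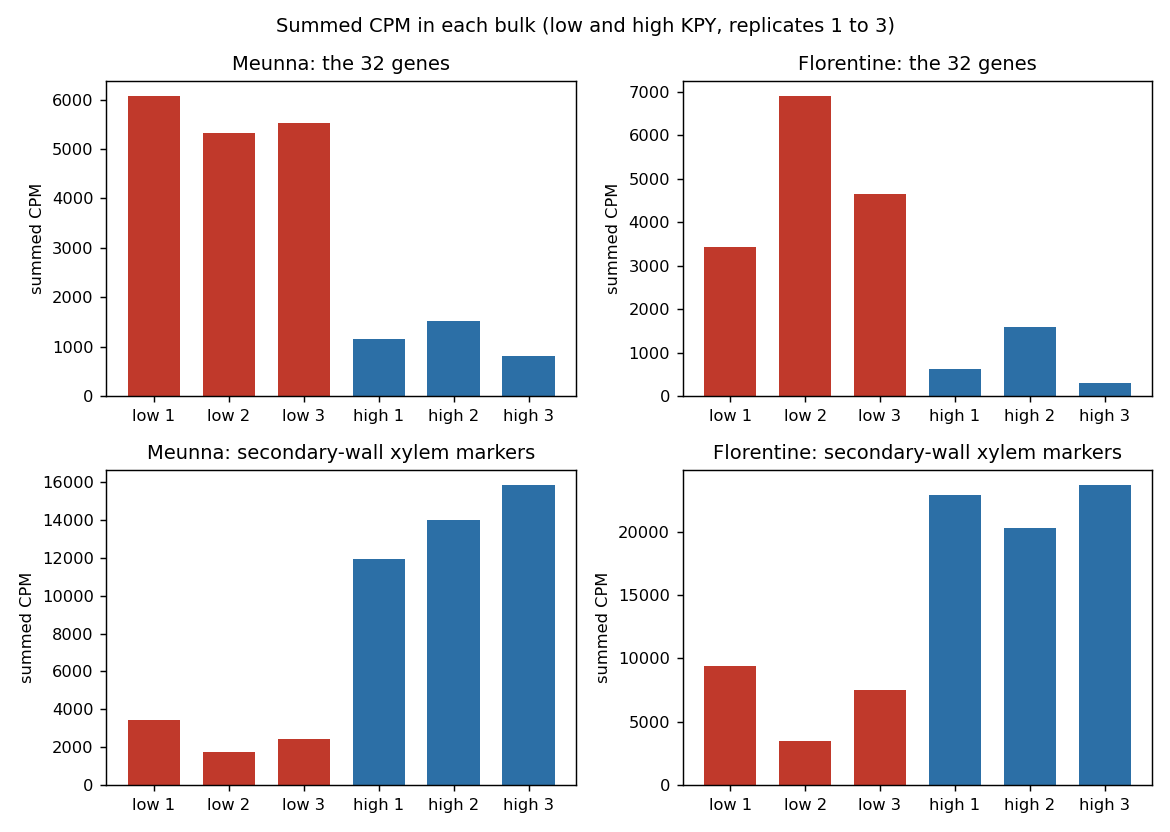
Summed CPM of the 32 genes (top) and of the secondary-wall xylem markers (bottom) in each bulk of Meunna (left) and Florentine (right), with low KPY bulks in red left of high KPY bulks in blue. In Florentine the bulk with the tallest bar of its class at the top, replicate 2, has the shortest bar of that class at the bottom.

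Whether the difference between low and high KPY was of another size in Florentine than in Meunna was tested with the interaction of trial and KPY over 12224 genes. The trials were sampled in different years and months, with different numbers of trees per bulk. Each trial also had its own transcript models. Site, time, pool size and transcript models therefore cannot be told apart in any comparison of the trials. The rule asked for an L of at least 1.5 in both trials, which limits how far the trials can differ in these genes. L was larger in Florentine in 20 of the 32 and in Meunna in 12. The interaction passed an FDR of 0.05 in 0 of the 32 genes by edgeR's quasi-likelihood F test, in which 0% of all genes passed, and 0 of the 32 and 790 of all genes (6.46%) had an unadjusted p under 0.05. The likelihood ratio test called 30 and DESeq2 called 65 of all genes, and 0 of the 32. The largest difference was that of Eucgr.I01495, which had 226, 132 and 86.3 CPM in Florentine low KPY bulks, against 13.6, 15.3 and 2.28 CPM in Florentine high KPY bulks, and 88.6, 91.0 and 187 CPM in Meunna low KPY bulks, against 46.5, 42.7 and 12.1 CPM in Meunna high KPY bulks. Its log2 fold change was larger in Florentine by 1.94 (SE 0.95, adjusted p = 0.772 by the quasi-likelihood F test). Next in L were Eucgr.J00271 and Eucgr.D02206, larger in Florentine by 1.02 and 0.97. In the other direction L was smaller in Florentine, by a difference of -1.35 for Eucgr.B02296, -1.16 for Eucgr.I02395 and -0.97 for Eucgr.A02790. A p that misses the threshold does not show that the trials were alike, and the standard errors of 0.26 to 1.55 leave room for sizeable differences.

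Relatives of the described genes, picked by name after the values had been seen, did not all lie on the same side. Names were at hand mostly for genes that the study had called on these same samples. Other relatives may therefore be missing, and a call of a relative is not independent evidence. Where a relative had several transcripts, the most abundant was taken. Among proton pumps, Eucgr.C02092 (H(+)-ATPase 2) was higher in low KPY, with 72.1 ± 20.5 CPM in Meunna low KPY and 12.8 ± 5.53 CPM in Meunna high KPY (SD, n = 3 bulks each), a log2 fold change of 2.49 (SE 0.40, adjusted p = 0.00676 by edgeR's quasi-likelihood test), and in Florentine with 3.31 (SE 0.74, adjusted p = 0.0197). Eucgr.K02916 (H(+)-ATPase 4) fell in low KPY, with 88.2 ± 32.3 CPM in Meunna low KPY and 323 ± 70.3 CPM in Meunna high KPY, a log2 fold change of -1.87 (SE 0.31, adjusted p = 0.00774), and in Florentine of -1.18 (SE 0.33, adjusted p = 0.0317). Eucgr.I01911 (H(+)-ATPase 11) and Eucgr.C00140 (H(+)-ATPase 1) passed the test in Florentine, with log2 fold changes of 1.27 and 1.93, and not in Meunna, with 0.54 and 1.34.

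Among metallothioneins, Eucgr.F01127 (metallothionein 3) was called higher in low KPY in both trials, with log2 fold changes of 4.17 (SE 0.71) in Meunna and 3.47 (SE 1.02) in Florentine. Eucgr.A01262, another match of metallothionein 2A, had 1391 ± 248 CPM in Meunna low KPY and 1037 ± 89.0 CPM in Meunna high KPY, short of the threshold, and 1690 ± 389 CPM in Florentine low KPY and 644 ± 71.5 CPM in Florentine high KPY, a log2 fold change of 1.39 (SE 0.21) past it. A copy of K+ uptake permease 6, Eucgr.B03949, rose by 1.08 (SE 0.13) in Meunna and 1.17 (SE 0.27) in Florentine on the log2 scale. In contrast Eucgr.H00553 (K+ uptake transporter 3) had log2 fold changes of -2.14 and -1.34, and the kinase Eucgr.D02391 (with no lysine (K) kinase 6) of -1.87 and -1.21, all past the threshold. Of the PLATZ factors, Eucgr.E00276 had log2 fold changes of 1.09 and 1.36 and Eucgr.A01594 of -1.78 and -1.15, each past the threshold. The other PLATZ genes were lower in low KPY too: Eucgr.C00450 had -1.63 in Meunna, past the threshold, and -0.99 in Florentine, short of it, and Eucgr.B03915, tested in Florentine, had -1.22, past it. So 3 of the 4 PLATZ relatives with a name here lay on the other side from Eucgr.D02206, and these may not be the whole family. Of the 12 relatives called in Florentine, all lost the call without high KPY replicate 1 (adjusted p = 0.0575 to 0.114 by the quasi-likelihood test) or replicate 3 (0.0519 to 0.106), 6 without high KPY replicate 2 (0.0504 to 0.0825), 8 without low KPY replicate 3 (0.0523 to 0.101), and 2 or 1 without low KPY replicate 2 (up to 0.0946) or 1 (0.0547). Of those named in Meunna, Eucgr.E00276 lost it without low KPY replicate 1 (adjusted p = 0.0523), high KPY replicate 1 (0.0651) or high KPY replicate 3 (0.0603), and Eucgr.C00450 without high KPY replicate 3 or any of the low KPY bulks (0.0525 to 0.0842).

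None of 21 lists of stress, transport and signalling families held any of the 32 genes, of which 22 had no description to match. The descriptions came mostly from genes that had been called on these samples, so a high share of calls in a list is not independent evidence. Transcripts called higher in low KPY outnumbered those called lower in both trials in 4 lists, namely WRKY, ABC transporters, pathogen defence and low-energy amino acid metabolism, and the reverse held in 9. For pathogen defence the margin was small, with 9 of 28 transcripts higher and 8 lower in Meunna, where the median log2 fold change was -0.29, and 12 of 28 higher and 10 lower in Florentine, and low-energy amino acid metabolism rested on 1 called transcript of 2 in each trial. Of WRKY transcription factors, 4 of 12 transcripts rose and 3 fell in Meunna and 7 of 11 rose and 3 fell in Florentine, with a median log2 fold change of 0.47 in Meunna and 0.95 in Florentine, beside 0.00 and 0.02 over all transcripts. Of ABC transporters, 6 of 7 rose in Meunna and 5 of 6 in Florentine and 0 fell. The list named sugar transporters here, matched by words, moved the other way, with 13 of 14 transcripts falling in each trial. It includes Eucgr.B02510, a nucleotide/sugar transporter family protein, so it does not stand for the sugar transporter family. The study lists a Nodulin MtN3 family gene, Eucgr.H04550, as higher in low KPY in both trials, while 0 transcripts of the list were called higher. The Florentine counts of every list rest on single libraries, since 0 transcripts were called without high KPY replicate 1 or 3, while leaving out low KPY replicate 3 gave 3 WRKY transcripts higher, 6 sugar transporters lower and 3 of pathogen defence lower. In Meunna 1 WRKY transcript was higher without high KPY replicate 1, while leaving out high KPY replicate 3 gave 1 WRKY transcript lower and 3 ABC transporters higher.

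Transcripts matched by the words late embryogenesis or dehydrin were also mostly lower: 1 of 15 rose and 12 fell in Meunna, and 2 of 13 rose and 8 fell in Florentine. The words also take in a hydroxyproline-rich glycoprotein family and a gene described as of unknown function. The list therefore does not stand for proteins of desiccation. The study lists Eucgr.E00787, of that hydroxyproline-rich glycoprotein family, as higher in low KPY in both trials, while 1 transcript of the list rose in Meunna. Of protein phosphatases 2C, which in *Arabidopsis* include repressors of abscisic acid signalling, 1 of 12 rose and 7 fell in Meunna and 1 of 12 rose and 9 fell in Florentine. Besides the loss of all Florentine calls without high KPY replicate 1 or 3, the transcripts of the first list that fell numbered 6 in Meunna without low KPY replicate 2 or high KPY replicate 3, 7 there when high KPY replicate 1 was left out, and in Florentine 5 without low KPY replicate 3 or high KPY replicate 2. The phosphatases that fell in Florentine numbered 3 without low KPY replicate 3. Among genes of the first list past the threshold in both trials, the largest rise was that of Eucgr.K00036, of the hydroxyproline-rich glycoprotein family. Its log2 fold changes were 0.92 (SE 0.23) in Meunna and 1.41 (SE 0.19) in Florentine. The largest fall was that of Eucgr.C00653, described as of unknown function and in the list by the words of its description, with -2.56 (SE 0.26) and -1.89 (SE 0.25). Among the phosphatases the largest fall was that of Eucgr.A01205, with -3.23 (SE 0.44) and -1.88 (SE 0.47). Eucgr.B04010, a match of WRKY DNA-binding protein 33, had 2.44 (SE 0.54) and 3.80 (SE 0.51), but with 4.24 and 1.08 CPM in the high KPY means of Meunna and Florentine it was not among the well expressed genes.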

How the data were processed

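Gene expression was measured by paired-end RNA-Seq (HiSeq) in 12 bulk libraries, 3 for each KPY class and trial. Trimmed reads of a trial's libraries were pooled by the authors and aligned to *E. grandis* (genome version not given in the sources used here) with TopHat, which runs Bowtie. Transcript models came from Cufflinks run on that pool alone, and BEDtools gave the reads of every library on them. The authors deposited 1 table of raw read counts per trial, without normalization, in which transcripts of low expression had already been removed. Reads of near-identical copies can be split or lost in such counts, though no gene of the 32 had the same counts as another transcript.

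The analysis used edgeR 4.0.16 under R 4.3.3. CPM used TMM-normalized library sizes of each trial. Each trial had its own edgeR quasi-likelihood fit (glmQLFit, glmQLFTest) on KPY class, with no other term, and Benjamini-Hochberg adjustment over all its transcripts at 0.05. The interaction of trial and KPY was fitted over all 12 libraries. An SE of a log2 fold change was back-calculated, as its absolute value over the square root of the F statistic of the test. Precision is limited by 3 bulks per group, and at the lowest values by counting error (6 reads in 1 case).

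The 32 genes, the gene lists and the tests were chosen with earlier results of these data known. Genes named are the 10 with the largest smaller L, the 10 with the highest low KPY level, the 3 with the largest differences of L between trials in each direction, the 3 with the widest spread in each trial, those at the thresholds, and the largest of a list in each direction. The described genes and their relatives were added after seeing values. Descriptions and *Arabidopsis* matches were taken from the annotation columns of the study's supplementary tables, in part shortened, for 3626 genes. The authors' own fold changes and p-values were not used, beyond the directions given for Eucgr.H04550, Eucgr.E00787, Eucgr.B02486, Eucgr.J00937 and Eucgr.J00938.

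Alternatives were edgeR's exact and likelihood ratio tests, DESeq2 1.42.0, RLE and upper-quartile factors, library size only, a pseudocount of 1 CPM, medians over bulks, filterByExpr, a block on replicate number, and leaving out each library. The CPM minimum in low KPY, the order of bulks under other factors the relatives under other settings, the gene and marker lists without each library, and the marker lists under other tests were added after seeing the data. Sequences were not analysed here.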

Additional observations from a re-analysis of the deposited data

How the results depend on the processing

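The rule gave 34 genes with RLE factors, 36 with upper-quartile factors and 31 with a pseudocount of 1 CPM, of which 32, 30 and 31 were among the 32. It gave 52 with library size only (25 of the 32), 21 with medians over bulks (16 of the 32), 22 to 36 without each library in turn, and 182 with the minimum of 10 CPM set on low KPY. L kept its sign in every gene and setting run. The order of bulks changed by at most 1 gene in each count of 23 or more under the other factors.

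In Meunna 2910 transcripts were called higher and 4444 lower in low KPY. DESeq2 called 4704 higher. Library size only gave 6703 higher and 2946 lower, and upper-quartile factors 4179 and 3726, with 0.30 and 0.13 as the median log2 fold change over all transcripts in place of 0.00. Without single libraries 1408 to 2262 were higher and 2755 to 3707 lower. In Florentine 4661 were higher and 4789 lower, against 9118 and 2532 with library size only (median 0.33), and 0 to 4840 and 0 to 5441 without single libraries. Of the 32 genes, 27 to 30 were called in Meunna and 0 to 27 in Florentine without single libraries. filterByExpr removed no transcript. The cause of these changes was not tested.

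For the interaction, the likelihood ratio test called 30 genes, DESeq2 65, and leaving out single libraries 0 to 1. The interaction of Eucgr.B02296 was -1.36, and -1.93 to 0.67 without single libraries. It changed sign without Florentine high KPY replicate 2, the bulk with most of this gene's reads in that group. With the replicate number as a block, 2284 transcripts were higher and 3883 lower in Meunna and 4429 and 4725 in Florentine, 28 and 27 of the 32 genes were called, and the interaction in 0 genes. The labels do not say whether the numbers pair the bulks. Deviations of same-numbered bulks correlated at -0.08, 0.04 and 0.12 in Meunna and at -0.08, 0.26 and -0.01 in Florentine. Those of bulks with different numbers correlated at -0.18 to 0.17 in Meunna and at -0.32 to 0.32 in Florentine. With 3 bulks per class these values cannot exclude a pairing or a shared batch. Under DESeq2, the exact test and RLE factors the list and marker counts named changed by less than 1.5 times, except that low-energy amino acid metabolism had 2 called higher in each trial under DESeq2 and the exact test, and green tissue 1 called higher in Meunna under DESeq2. Without single libraries, in Meunna 1 to 4 WRKY transcripts were higher and 1 to 3 lower, 3 to 6 ABC transporters higher, 12 to 14 sugar transporters lower, 0 to 1 of the late embryogenesis abundant list higher and 6 to 12 lower, 0 to 1 phosphatases 2C higher, 1 to 2 of low-energy amino acid metabolism higher, 0 to 1 xylem markers higher and 15 to 17 lower, and 2 to 3 green tissue markers lower. In Florentine 0 to 8 WRKY transcripts were higher and 0 to 3 lower, 0 to 5 ABC transporters higher, 0 to 14 sugar transporters lower, 0 to 2 of the late embryogenesis abundant list higher and 0 to 11 lower, 0 to 1 phosphatases 2C higher and 0 to 10 lower, 0 to 13 of pathogen defence higher and 0 to 9 lower, 0 to 1 of low-energy amino acid metabolism higher, 0 to 2 xylem markers higher and 0 to 15 lower, and 0 to 4 green tissue markers higher and 0 to 5 lower. The search for promoter motifs was not run, since no sequences were used here.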

Other observations

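Genes with several transcripts fell outside the rule, and 7 of them had a transcript past both thresholds in each trial. Of these, 3 had every transcript past them: Eucgr.A00172 and Eucgr.A00188, both matches of the same MLP-like protein (major latex protein family), and Eucgr.H02296, which has no description here. Eucgr.A00188 averaged 524 CPM in Meunna low KPY and 75.6 CPM in Meunna high KPY, an L of 2.79. Its 2 Florentine transcripts had nearly equal values, at 509 and 508 CPM in low KPY and 29.0 and 28.9 CPM in high KPY, an L of 4.13 for each. Eucgr.A00172 had 171 CPM in Meunna low KPY and 40.1 CPM in Meunna high KPY, and its 2 Florentine transcripts 210 and 202 CPM in low KPY and 14.6 and 14.3 CPM in high KPY. Whether reads are shared between these 2 genes was not tested. The other 4 were Eucgr.E01863, Eucgr.G02459, Eucgr.G03256 and Eucgr.J02719, none with a description here. Among transcripts without a gene identifier, 7 in Meunna and 6 in Florentine were past both thresholds, and these could not be matched between trials.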
